A study of Homo sapiens with 6 samples.

Results

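The checkpoint genes ATR, ATRIP, ATM, TOPBP1, CHEK1, CHEK2, WEE1, CDC25A, CDC25B and CDC25C were followed in ARPE-19 cells, an established line of human retinal pigment epithelium. They were chosen by name for their part in DNA damage and replication checkpoint signalling, and all 10 were found among the 30618 genes counted. RNA-seq compared 3 libraries from cells that received a negative control siRNA (NC) with 3 from cells that received an siRNA against EIF1 (siEIF1), a factor for start codon selection in translation. Both groups were kept in 50 mM glucose, the study's model of diabetic retinopathy, and cells in normal glucose were not analysed here. The replicates are described as independent, the knockdown was transient, and a single cell line was used. In such bulk libraries, fewer cells of a type and less RNA per cell cannot be told apart.

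The checkpoint kinases stop the cell cycle when DNA is broken or replication stalls. ATR, brought to single-stranded DNA by its partner ATRIP and switched on by TOPBP1, phosphorylates CHEK1, while ATM responds to double-strand breaks and phosphorylates CHEK2. CHEK1 and CHEK2 restrain the CDC25 phosphatases, which remove from the cyclin-dependent kinases the inhibitory phosphates that WEE1 and PKMYT1 add. Pigment epithelial cells of the adult eye rarely divide, whereas ARPE-19 cells proliferate in culture.

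The libraries held 26499929 to 31431479 counts, and 16749 genes passed the filter on low counts. EIF1 fell from an FPKM (fragments scaled to gene length and to all mapped fragments) of 285.57 ± 7.60 (SD, n = 3) to 23.5 ± 0.80, with a log2 fold change of -3.58 (SE 0.055; edgeR's quasi-likelihood test, Benjamini-Hochberg adjusted p = 1.08e-13). Of the markers of pigment epithelium, MITF (mean FPKM 5.84 in NC and 5.59 in siEIF1), OTX2 (17.8 and 18.7) and the keratin KRT18 (326 and 382) were expressed, whereas TYR and TYRP1, enzymes of pigment synthesis, had mean counts of 0.667 and 7 per library. Of 9 tested pigment epithelium markers 3 were higher in siEIF1, namely RLBP1, a retinoid carrier (log2 fold change 1.55, adjusted p = 0.00102, at a mean of 30.7 counts), KRT18 (0.25, adjusted p = 0.00442) and KRT8 (0.24, adjusted p = 0.0095, lost without NC replicate 1 or siEIF1 replicate 2), and none was lower. Over all tested genes 10.2% were higher at an adjusted p under 0.05. A replicate block, no filter on low counts and leaving out siEIF1 replicate 1 each gave 1 lower marker. The summed CPM (counts scaled to library size) of these markers was 2993 to 3143 in NC and 3046 to 3476 in siEIF1, with BEST1, a large part of it, lowest in siEIF1 replicate 3 (408 CPM, against 605 to 753 elsewhere). RPE65 and PTPRC were not analysed here. The endothelial markers PECAM1 and CDH5 were near 0, with a mean count of 0.333 each, and the glial marker GFAP had 9.17.

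Of the 10 checkpoint genes, 5 fell in the siEIF1 group, namely ATR, TOPBP1, CHEK1, CDC25B and CDC25C, and ATM, ATRIP, CHEK2, WEE1 and CDC25A did not pass the test. All 10 passed the filter on low counts, with mean counts from 49.7 (CDC25C) to 1178 (WEE1). At an adjusted p under 0.05 (edgeR's quasi-likelihood test, Benjamini-Hochberg adjustment over all tested genes), 10.4% of all tested genes were lower and 10.2% were higher. No checkpoint gene was higher (0 of 10, also 0 at an unadjusted p under 0.05 and 0 with DESeq2). With the study's further limit of a fold change below 0.5, only CDC25C was lower, against 1.31% of all tested genes, and none was above a fold change of 2, against 0.4%. The median log2 fold change of the 10 genes was -0.27, beside 0.0033 over all tested genes.

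**Figure D1:**
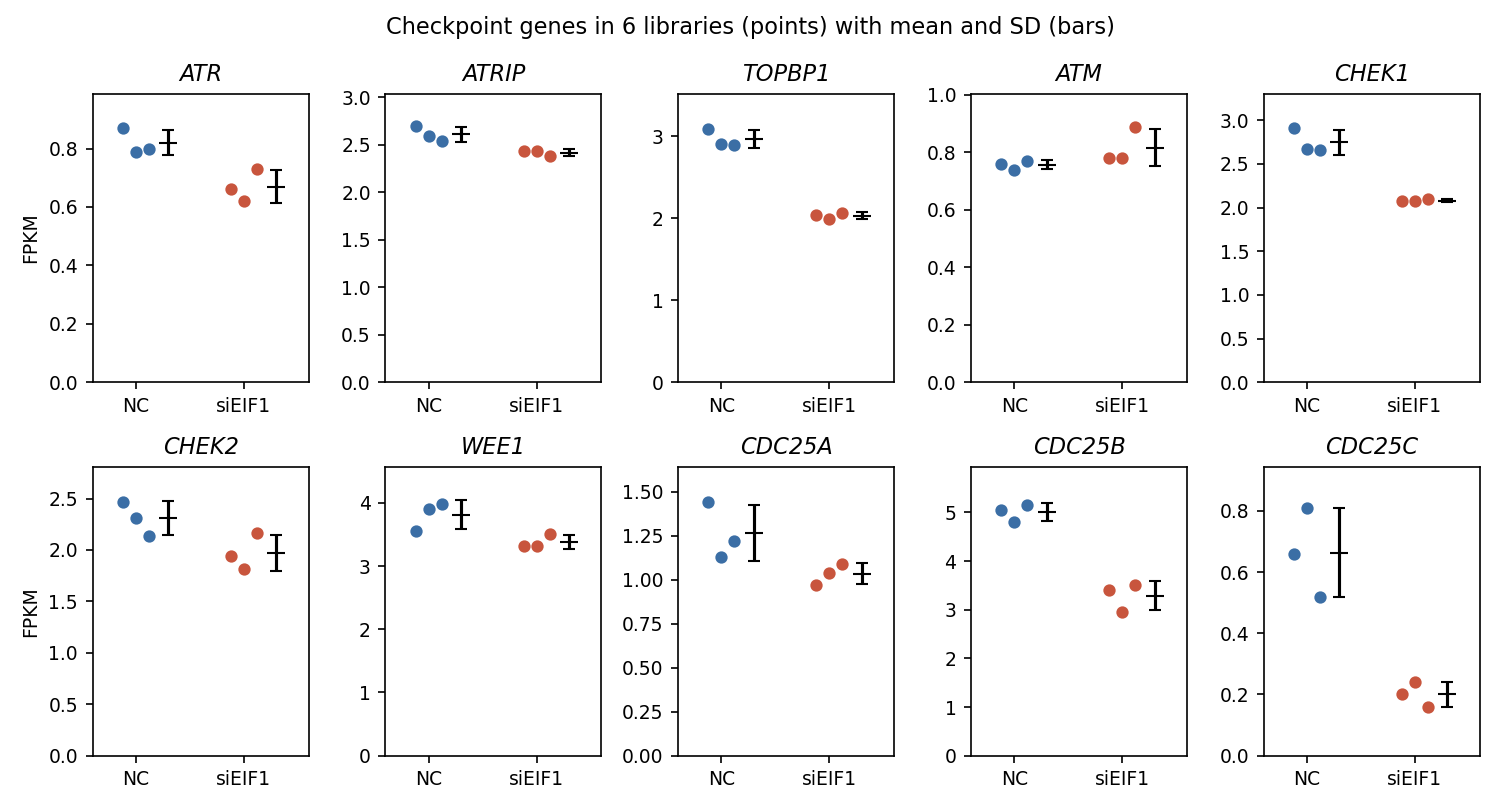
FPKM of each checkpoint gene in the 6 libraries, with NC in blue, siEIF1 in red and the mean and SD as bars to the right of the points; each panel has its own axis from 0. The siEIF1 points of TOPBP1, CHEK1, CDC25B and CDC25C lie clear of the NC points, those of CHEK2 overlap them, and those of ATM lie above them.

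The groups did not overlap in CPM, scaled by edgeR's TMM method, for 8 of the 10 genes, against 37.1% of all tested genes. In 7 of the 8 the siEIF1 libraries were the lower ones, and ATM was the exception. ATRIP and CHEK2 overlapped on this scale.

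ATR, the kinase at the head of the replication checkpoint, had an FPKM of 0.87, 0.79 and 0.80 in NC replicates 1 to 3 and of 0.66, 0.62 and 0.73 in siEIF1 replicates 1 to 3. Every siEIF1 library was below every NC library, though siEIF1 replicate 3 came near the lowest NC value. ATR had a log2 fold change of -0.27 (SE 0.068, 95% interval -0.42 to -0.12; edgeR's quasi-likelihood test, Benjamini-Hochberg adjusted p = 0.0127), which is 17.2% lower. This call was the least firm of the 5, since it was lost without NC replicate 1 (log2 fold change -0.23, adjusted p = 0.0563) and without siEIF1 replicate 2 (-0.24, adjusted p = 0.0639). ATRIP, the partner that carries ATR to DNA, had an FPKM of 2.61 ± 0.0819 (SD, n = 3) in NC and 2.42 ± 0.0346 in siEIF1. Its log2 fold change of -0.090 had a 95% interval from -0.24 to 0.062 (edgeR's quasi-likelihood test, adjusted p = 0.418), which holds both no change and a fall close to that of ATR.

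TOPBP1, the activator of ATR, also fell. It had an FPKM of 3.09, 2.91 and 2.89 in the NC libraries and of 2.04, 1.99 and 2.07 in the siEIF1 libraries. The siEIF1 libraries lay close together, far below the lowest NC library. TOPBP1 thus had a log2 fold change of -0.52 (SE 0.064, 95% interval -0.66 to -0.38; edgeR's quasi-likelihood test, adjusted p = 8.95e-05), or 30.3% lower. Set against ATR within each library, TOPBP1 went from 3.62 to 3.04 times the FPKM of ATR, without overlap between the groups.

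ATM, the kinase of the double-strand break branch, went the other way. Its FPKM was 0.76, 0.74 and 0.77 in the NC libraries and 0.78, 0.78 and 0.89 in the siEIF1 libraries. All siEIF1 values were above the NC values, but replicates 1 and 2 barely exceeded the highest NC value, and replicate 3 stood apart from them. The log2 fold change of 0.12 (SE 0.059, 95% interval -0.0049 to 0.25) did not pass the test (edgeR's quasi-likelihood test, adjusted p = 0.170), and it was 0.073 without siEIF1 replicate 3. The ATR to ATM ratio within a library went from 1.08 to 0.820, with ATR above ATM in every NC library and below it in every siEIF1 library. This difference of -0.40 on the log2 scale had p = 0.1 in a two-sided exact permutation test, the smallest p that 3 libraries against 3 allow, and so no pair of genes could pass 0.05 by this test.

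CHEK1, the kinase that ATR switches on, fell evenly. Its FPKM was 2.91, 2.67 and 2.66 in the NC libraries and 2.07, 2.07 and 2.1 in the siEIF1 libraries. The siEIF1 values were almost equal and all lay below the NC values. CHEK1 had a log2 fold change of -0.38 (SE 0.071, 95% interval -0.53 to -0.23; edgeR's quasi-likelihood test, adjusted p = 0.00212), or 23.2% lower.

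CHEK2, the effector of ATM, had an FPKM of 2.47, 2.31 and 2.14 in the NC libraries and of 1.94, 1.81 and 2.16 in the siEIF1 libraries. SiEIF1 replicate 3 lay above NC replicate 3, so the groups overlapped. CHEK2 had a log2 fold change of -0.21 (SE 0.089, 95% interval -0.40 to -0.017; edgeR's quasi-likelihood test, adjusted p = 0.121). The interval of CHEK2 covers the value of CHEK1, and the CHEK1 to CHEK2 ratio moved only from 1.19 to 1.06, a log2 difference of -0.17 (two-sided exact permutation test, p = 0.1). Without siEIF1 replicate 3 this difference was -0.11.

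WEE1, the kinase that holds CDK1 and CDK2 inactive, was among the most abundant of the 10 genes. Its FPKM was 3.55, 3.9 and 3.98 in the NC libraries and 3.31, 3.32 and 3.51 in the siEIF1 libraries. NC replicate 1 lay close to the siEIF1 values and the groups still did not overlap. For WEE1 the log2 fold change was -0.15 (SE 0.058, 95% interval -0.28 to -0.027; edgeR's quasi-likelihood test, adjusted p = 0.0831), and it passed the test without NC replicate 1 (-0.20, adjusted p = 0.0372). PKMYT1, the related kinase that adds phosphates to CDK1 at the membrane, fell from an FPKM of 1.30 ± 0.0839 (SD, n = 3) to 0.547 ± 0.0321, with a log2 fold change of -1.23 (SE 0.121; edgeR's quasi-likelihood test, adjusted p = 1.46e-05). The WEE1 to PKMYT1 ratio went from 2.94 to 6.19 in the group means, with no overlap between the libraries (two-sided exact permutation test, p = 0.1).

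The 3 CDC25 phosphatases did not move alike. CDC25A, which acts from the start of S phase, had an FPKM of 1.44, 1.13 and 1.22 in the NC libraries and of 0.97, 1.04 and 1.09 in the siEIF1 libraries. The highest siEIF1 value was just under the lowest NC value. Its log2 fold change of -0.27 was close to that of ATR, but at counts of 154 to 194 its SE was 0.124 and it did not pass the test (95% interval -0.53 to 0.0014; edgeR's quasi-likelihood test, adjusted p = 0.155). NC replicate 1 was the highest library, and without it the log2 fold change was -0.16.

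CDC25B, which starts the activation of CDK1 before mitosis, had an FPKM of 5.05, 4.8 and 5.16 in the NC libraries and of 3.4, 2.96 and 3.51 in the siEIF1 libraries. The groups were far apart. The log2 fold change was -0.58 (SE 0.071, 95% interval -0.74 to -0.43; edgeR's quasi-likelihood test, adjusted p = 8.60e-05), or 33.3% lower. CDC25B was the most abundant of the 10 genes in the NC group, and in the siEIF1 group its values overlapped those of WEE1.

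CDC25C, which drives entry into mitosis, was the gene with the deepest fall. Its FPKM was 0.66, 0.81 and 0.52 in the NC libraries and 0.20, 0.24 and 0.16 in the siEIF1 libraries, from 71, 95 and 59 counts against 25, 29 and 19. The counts were the lowest of the 10 genes and the NC libraries spread widely, yet the highest siEIF1 count was less than the lowest NC count. Its log2 fold change was -1.73 (SE 0.246, 95% interval -2.26 to -1.20; edgeR's quasi-likelihood test, adjusted p = 0.000281), or 69.8% lower. With each library left out in turn it stayed between -1.90 and -1.55.

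**Figure D2:**
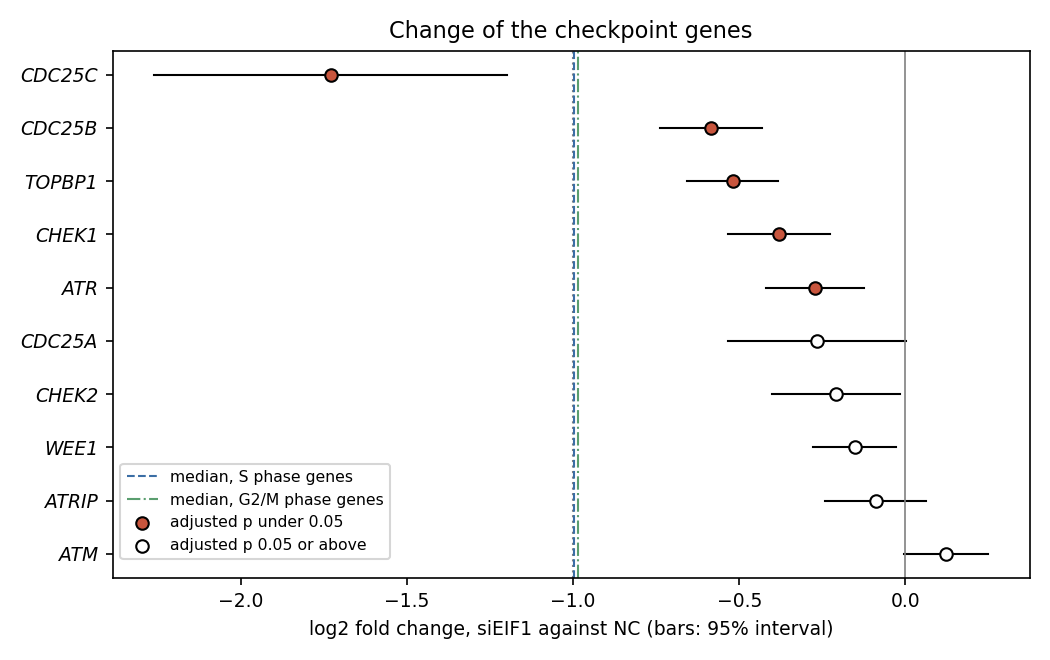
Log2 fold change of the checkpoint genes (points, filled where the adjusted p was under 0.05) with 95% intervals; the dashed and dash-dotted lines mark the medians of the S phase and G2/M phase genes. CDC25C at -1.73 lies left of both medians, and the other 9 genes lie between -0.58 and 0.12, right of them.

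The summed FPKM of the 3 phosphatases was 6.93 ± 0.207 (SD, n = 3) in NC and 4.52 ± 0.263 in siEIF1. CDC25B held 72.2% ± 2.25 of this sum in NC and 72.7% ± 2.48 in siEIF1, while CDC25C held 9.60% ± 2.26 and 4.47% ± 1.15 and CDC25A 18.2% ± 1.75 and 22.9% ± 1.65. The shares of CDC25A and CDC25C did not overlap between the groups, and that of CDC25B did. The CDC25C to CDC25B ratio differed by -1.12 on the log2 scale, from 0.131 to 0.0601, and the CDC25A to CDC25C ratio by 1.44, from 1.93 to 5.23 (two-sided exact permutation test, p = 0.1 for each). The CDC25A to CDC25B ratio was 0.251 in NC and 0.315 in siEIF1, but its groups were separate in FPKM and overlapped in CPM.

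**Figure D3:**
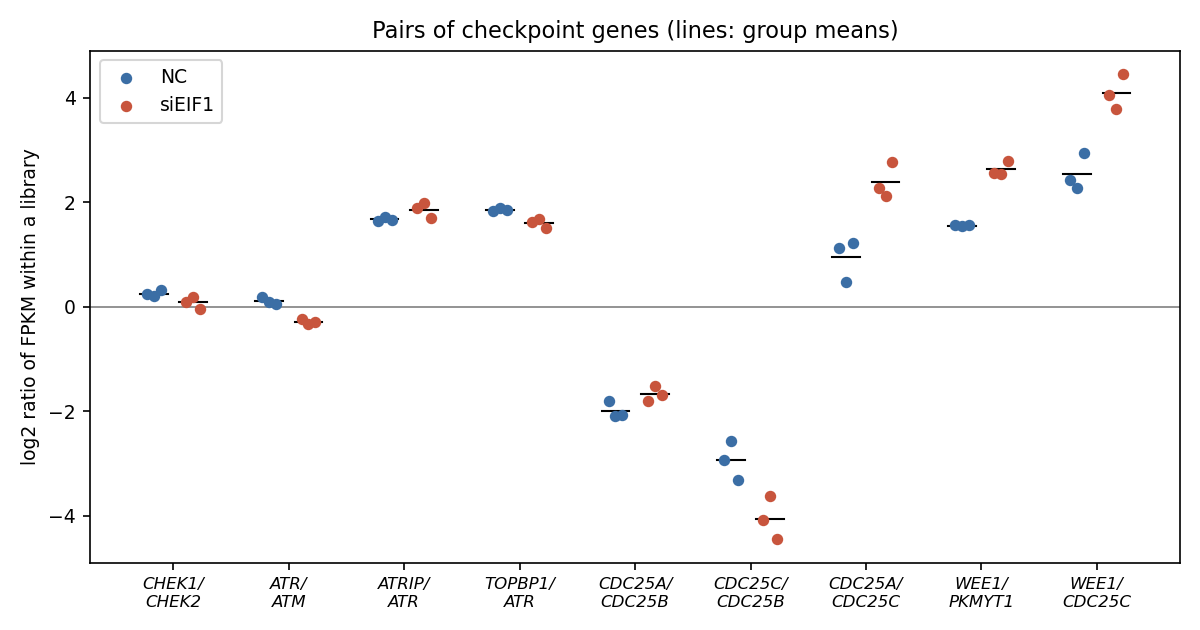
Log2 ratio of the FPKM of paired genes in each library, with NC in blue, siEIF1 in red and lines at the group means. The ratios that hold CDC25C and the WEE1 to PKMYT1 ratio show the largest differences between the group means, of at least 1.07 on the log2 scale. The ATRIP to ATR ratio overlaps between the groups.

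Over the 9 pairs compared, 8 had no overlap between the groups in FPKM and 7 in CPM. No such count was made over other pairs of genes, and several of the 9 pairs share a gene, so these counts are descriptions. The Benjamini-Hochberg adjusted p of the exact permutation tests was 0.1125 for the 8 pairs without overlap and 0.2 for ATRIP to ATR, whose ratio was 3.18 in NC and 3.62 in siEIF1. The ratio of WEE1 to CDC25C, the kinase and the phosphatase that act on CDK1 in opposite directions, went from 5.83 to 17.1. RNA ratios do not measure the activity of these proteins.

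By FPKM, the levels of the 10 genes in NC spanned 7.54-fold. CDC25B was highest, followed by WEE1, and then by TOPBP1, CHEK1 and ATRIP, whose neighbours overlapped. CHEK2, CDC25A and ATR came next, and ATM and CDC25C were lowest and overlapped. CDC25C, at up to 0.81, also overlapped ATR, at 0.79 and above. In siEIF1 the span was 16.9-fold, WEE1 and CDC25B overlapped at the top, CHEK1, TOPBP1 and CHEK2 overlapped in the middle, ATM stood above ATR, and CDC25C was alone at the bottom. The order depends on the gene length used. The deposited FPKM values track the length of all annotated exons together, and with CPM per kilobase of the canonical transcript WEE1 led in NC, ahead of CDC25B and CHEK2, and CDC25A lay below ATR and ATM.

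The promoters of 5 of the genes are shown because they let a reader set the letters of cell cycle motifs beside genes that fell and genes that did not. Sequences are from RefSeq (GRCh38.p14), 250 bases before and 10 bases from the annotated start on, 5′ to 3′ on the strand of the gene, with motif matches in capitals.
CDC25C (chr5:138331795-138332054, minus strand): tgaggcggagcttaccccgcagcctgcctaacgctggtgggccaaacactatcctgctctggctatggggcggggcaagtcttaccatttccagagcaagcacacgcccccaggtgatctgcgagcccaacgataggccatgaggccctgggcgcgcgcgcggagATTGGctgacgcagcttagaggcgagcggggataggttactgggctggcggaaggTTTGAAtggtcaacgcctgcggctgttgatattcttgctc
CDC25B (chr20:3796060-3796319, plus strand): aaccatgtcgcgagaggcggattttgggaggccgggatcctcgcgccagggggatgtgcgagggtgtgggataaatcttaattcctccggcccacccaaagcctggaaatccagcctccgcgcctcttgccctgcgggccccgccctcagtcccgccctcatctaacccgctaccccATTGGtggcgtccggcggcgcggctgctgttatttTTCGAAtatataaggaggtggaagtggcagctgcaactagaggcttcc
TOPBP1 (chr3:133661932-133662191, minus strand): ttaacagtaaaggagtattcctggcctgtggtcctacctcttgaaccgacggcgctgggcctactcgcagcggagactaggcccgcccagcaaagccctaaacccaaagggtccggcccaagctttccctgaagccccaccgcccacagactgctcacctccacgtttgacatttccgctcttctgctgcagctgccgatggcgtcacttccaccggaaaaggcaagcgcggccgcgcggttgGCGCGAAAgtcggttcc
CDC25A (chr3:48188408-48188667, minus strand): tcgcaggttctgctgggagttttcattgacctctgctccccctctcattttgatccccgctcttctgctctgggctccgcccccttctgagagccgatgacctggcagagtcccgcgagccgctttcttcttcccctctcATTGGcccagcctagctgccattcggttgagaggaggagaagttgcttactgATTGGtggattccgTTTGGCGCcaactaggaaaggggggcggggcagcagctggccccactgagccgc
ATM (chr11:108222817-108223076, plus strand): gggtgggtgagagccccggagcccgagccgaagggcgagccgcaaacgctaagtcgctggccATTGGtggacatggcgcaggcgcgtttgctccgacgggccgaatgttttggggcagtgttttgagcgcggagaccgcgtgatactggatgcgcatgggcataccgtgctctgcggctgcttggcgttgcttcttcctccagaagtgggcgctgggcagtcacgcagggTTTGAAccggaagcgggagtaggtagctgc
Of the 10 genes, 9 had a RefSeq promoter entry, and 8 of these began at the start of the canonical transcript, so CHEK1 was left out with WEE1. Searched on both strands were the E2F site (TTTCCCGC, TTTCGCGC, TTTGCCGC or TTTGGCGC), bound by the E2F factors of S phase genes, the cell cycle homology region or CHR (TTTGAA or TTCGAA), known from genes of G2 and mitosis, and the CCAAT box (CCAAT), known from many promoters of both kinds. No match shared bases with another in the promoters shown.

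CDC25C held TTTGAA from -30 to -25 before its start, with a CCAAT box from -85 to -81. CDC25B held TTCGAA from -38 to -33 and a CCAAT box from -73 to -69. Both motifs were also present in ATM, which did not pass the test, with TTTGAA from -20 to -15 and a CCAAT box from -188 to -184. The E2F letters were found in TOPBP1, across the start from -7 to 1, and in CDC25A, from -44 to -37, and the promoter of ATR held none of the motifs. In all, 2 of the 8 windows held an E2F site, 3 a CHR and 6 a CCAAT box, against 3.31%, 16.4% and 34.6% of 35116 RefSeq promoters of the same length. The windows searched were 300 bases long, 250 before the start and 50 from it on, and thus reach past the bases shown. These are matches of letters, and binding was not measured.

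Around ATR, 7 of the 12 genes of its activation and signal relay fell and 1 rose, with a median log2 fold change of -0.33. Over all tested genes 10.4% were lower and 10.2% higher, and these shares stand beside the counts of the lists that follow as well. RPA2, a subunit of the protein that coats single-stranded DNA, fell from an FPKM of 15.6 ± 0.717 (SD, n = 3) to 6.31 ± 0.357 (log2 fold change -1.28; edgeR's quasi-likelihood test, adjusted p = 1.29e-07). CLSPN, the adaptor through which ATR reaches CHEK1, fell from 0.577 ± 0.0252 to 0.11 ± 0.03 (log2 fold change -2.36, adjusted p = 1.43e-06), more deeply than any of the 10 checkpoint genes. TIMELESS, of the fork protection complex, fell with a log2 fold change of -0.84 (adjusted p = 1.75e-05). ETAA1, the other activator of ATR, was the gene that rose (0.24, adjusted p = 0.0338), and DESeq2 did not call it (adjusted p = 0.0584). Its call was also lost with each single library left out except NC replicate 3, at adjusted p from 0.0533 to 0.129.

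Around ATM, 4 of 10 genes fell and none rose, with a median of -0.0083. They were the histone variant H2AX (log2 fold change -0.63; edgeR's quasi-likelihood test, adjusted p = 1.31e-05), the break sensor subunits MRE11 (-0.40, adjusted p = 0.00072) and NBN (-0.28, adjusted p = 0.00851), and the mediator MDC1 (-0.35, adjusted p = 0.00915). RAD50, of the same break sensor, did not pass the test (0.075, adjusted p = 0.864), at a mean of only 58.7 counts against 614 for MRE11. Of the other kinases of the ATR and ATM family and their assembly factors, 1 of 9 fell, near the 10.4% of all tested genes. This was RUVBL1 (log2 fold change -0.17, adjusted p = 0.0337), a call kept among the single omissions only without NC replicate 2. The median of this list was 0.0040, without a steady sign (-0.12 without siEIF1 replicate 3). Without siEIF1 replicate 1, 0 were lower and 2 higher, MTOR (adjusted p = 0.0325) and TRRAP (adjusted p = 0.0311). The DNA-dependent kinase PRKDC was at 0.0040 (adjusted p = 0.982). The assembly factors TTI1 (-0.19, adjusted p = 0.118) and TTI2 (-0.14, adjusted p = 0.278) did not pass the test, though TTI1 did without NC replicate 3 (adjusted p = 0.0344).

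All 8 genes of the cyclin-dependent kinases, cyclins and PKMYT1 fell, with a median log2 fold change of -0.98. CDK1, the target of WEE1 and CDC25C, fell from an FPKM of 3.67 ± 0.0666 (SD, n = 3) to 1.15 ± 0.105 (log2 fold change -1.66; edgeR's quasi-likelihood test, adjusted p = 3.00e-07), and CCNB1, its cyclin, fell with a log2 fold change of -1.01 (adjusted p = 2.90e-06). Of 16 tested regulators of CDC25 and WEE1, 6 fell and none rose. The mitotic kinases MELK (log2 fold change -1.24), PLK1 (-1.10) and AURKA (-0.90) were among them, while the median of the list was -0.074.

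Of the 8 phosphatases that reset checkpoint signals, 2 rose (PPP1CC, log2 fold change 0.25, and PPP1CB, 0.17) and 1 fell (PPP2CB, -0.18). The call of PPP1CB was lost without any of the NC libraries or siEIF1 replicate 1, and that of PPP2CB without NC replicate 2 or siEIF1 replicate 2. Over all 85 tested genes of these lists and of a further list not reported here by name, 30 were lower and 13 higher, against the 10.4% and 10.2% of all tested genes given above. Of the 22 genes of that further list 10 were higher and 3 lower, so the lists described above hold few of the higher genes.

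**Figure D4:**
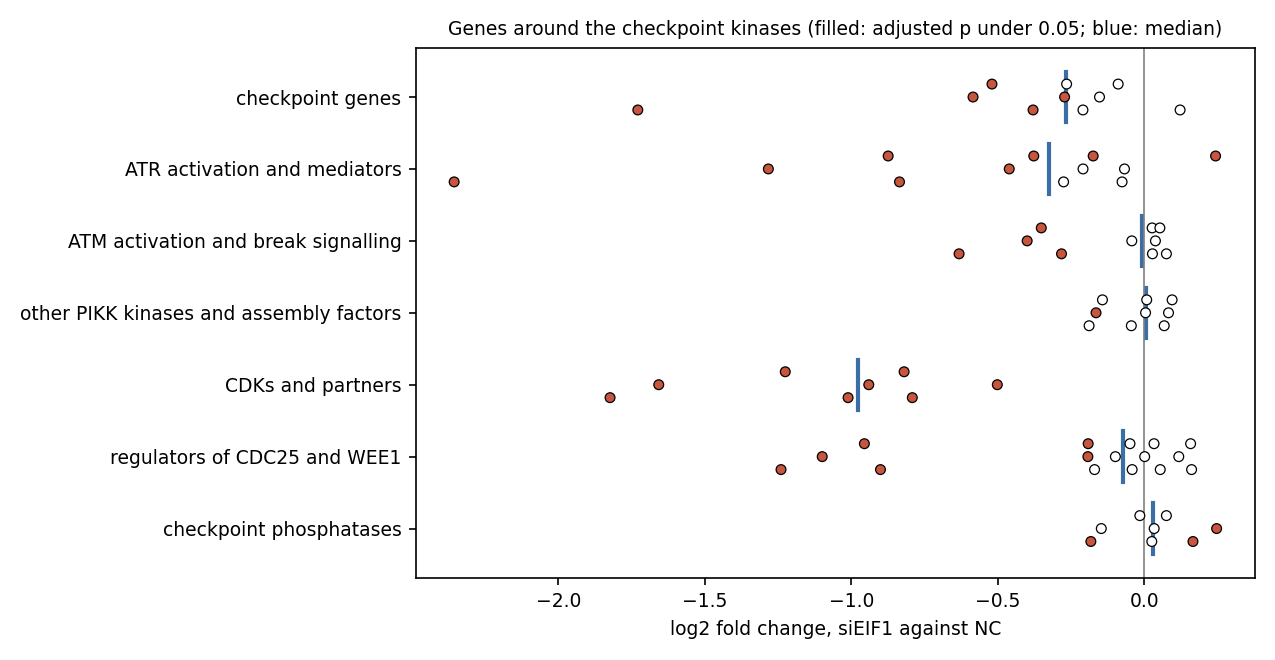
Log2 fold change of each tested gene in the checkpoint set and in the lists around it, filled where the adjusted p was under 0.05, with the median of each list as a blue line. The cyclin-dependent kinases and their partners lie furthest left, at a median of -0.98, and the checkpoint phosphatases lie around 0, at a median of 0.029.

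Genes of S phase and of G2 and mitosis moved with these results. Phase genes were taken from the lists that come with the Seurat package, with the checkpoint genes left out. Of these, 38 of 42 tested S phase genes and 45 of 52 tested G2/M genes fell, against 10.4% of all tested genes. Their median log2 fold changes were -0.998 and -0.986. The summed CPM of the S phase list was 1104 to 1165 in the NC libraries and 758 to 783 in the siEIF1 libraries, and that of the G2/M list 1530 to 1602 and 1139 to 1158, and the part of cell cycle phase in the changes of the checkpoint genes was not tested. CHEK1 fell less than 34 of the 42 S phase genes and 43 of the 52 G2/M genes, and CDC25B less than 29 and 36 of them. CDC25C fell further than most, with 7 S phase and 4 G2/M genes below it.

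By its profile over the 6 libraries, CHEK1 was most like STARD3NL (Pearson r = 0.999 of log2 CPM), DCBLD1 (0.997), FAM174B (0.997), RP11-627K11.6 (0.997) and AP3M2 (0.996), among 12026 genes with a mean count of at least 100. These values describe 6 libraries in 2 groups, so a gene that differs between the groups by a steady amount ranks high.

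Several of the genes lie over others in the annotation (GENCODE release 44, GRCh38), and the strand setting of the counting is not given in the sources used here. CDC25C (chr5:138285269-138338355) shares 6421 bases with FAM53C on the opposite strand, ATM (chr11:108223044-108369102) shares 60584 bases with C11orf65 on the opposite strand, and ATRIP (chr3:48446710-48467645) shares 1835 bases with TREX1 on the same strand. CHEK1 (chr11:125625163-125676255) shares 4734 bases with ACRV1 on the opposite strand and 53 with STT3A on its own, and CHEK2 (chr22:28687743-28742422) shares 384 with HSCB. PKMYT1, used in the ratio with WEE1, shares 4215 bases with PAQR4 and 357 with KREMEN2, both on the opposite strand. Whether reads of such partners were kept apart is not known, so the values of these genes are uncertain to that extent, also for ATRIP and CHEK1, whose partners TREX1 and STT3A lie on the same strand. ATR (chr3:142449007-142578733), TOPBP1 (chr3:133598175-133662380), WEE1 (chr11:9573670-9593457), CDC25A (chr3:48157146-48188417) and CDC25B (chr20:3786772-3806121) overlapped no other protein-coding gene. Noncoding genes or pseudogenes overlapped all of these but CDC25B. The longest such overlap, of 7023 bases, was of ATR with a long noncoding RNA gene on its own strand, so ATR is uncertain to that extent too.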

How the data were processed

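RNA-seq libraries of ARPE-19 cells (3 NC, 3 siEIF1, grouped by their titles) were analysed. The authors trimmed reads with FASTX-Toolkit 0.0.13, aligned them to GRCh38 with HISAT2 and deposited raw counts of uniquely mapped reads per gene. Their FPKM values, also deposited, are rounded to 2 decimals and cover 30275 of the 30618 genes. The counting program, strand setting and annotation are not given in the sources used here.

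Counts were filtered with filterByExpr, scaled by TMM and tested with edgeR 4.0.16 (quasi-likelihood test, Benjamini-Hochberg adjustment over 16749 genes, adjusted p under 0.05) in R 4.3.3. The standard error is the log2 fold change over the square root of the F statistic. DESeq2 1.42.0, the tool of the study, and limma 3.58.1 on log2(FPKM + 1) and log2(FPKM + 0.1) served as alternatives, beside other normalizations, other filters, a replicate block and leaving out each library. Ratios of FPKM were compared by exact permutation tests in scipy 1.17.1. Mitochondrial genes took 9.23% to 9.56% of the counts in NC and 9.68% to 9.98% in siEIF1, and the 10 most abundant genes 9.90% to 10.2% and 10.3% to 10.75%, so both shares were higher in siEIF1, and their part in the results was not tested. TMM factors were 0.981 to 1.02, and replicates differed by more than sampling noise. Intervals cover the spread between these libraries.

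On simulated counts with 200 of 16749 genes changed, edgeR recovered 198 with 13 false calls. The planted fold changes were 2 or more, or 0.5 or less, and genes of the lowest levels received none. Recovery of smaller changes, such as those of all checkpoint genes but CDC25C, was not tried. The genes named are the 10 checkpoint genes, EIF1, PKMYT1, the 3 genes of each reported list with the smallest p, and the 5 genes most like CHEK1. ETAA1, MDC1, RAD50, PRKDC, MTOR, TRRAP and the markers were added after their values were seen. The genes and lists were chosen with earlier results of these data known, so their counts are descriptions. Marker genes of pigment epithelium and of other cell types were checked as levels. Splicing was not analysed here, and some items under these rules are not reported here.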

Additional observations from a re-analysis of the deposited data

How the results depend on the processing

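The calls of TOPBP1, CHEK1, CDC25B and CDC25C passed under DESeq2, RLE and upper-quartile normalization, no filter, at least 10 counts in every library, both limma fits, the replicate block and without each library. ATR lost its call with limma on log2(FPKM + 1) (-0.12, adjusted p = 0.115) and on log2(FPKM + 0.1) (-0.26, adjusted p = 0.152), and CDC25C was then within the fold limit on log2(FPKM + 1), where the count of genes past it was 0; that pseudocount shrinks the change of low genes. With 1 library left out, log2 fold changes ran from -0.32 to -0.23 for ATR (lost without NC replicate 1 and siEIF1 replicate 2), from -0.20 to -0.13 for WEE1 (passing without NC replicate 1), and the number of lower checkpoint genes was 4 to 5 and of related genes 26 to 30. RLE and upper-quartile normalization moved no tested gene, the checkpoint genes among them, by more than 0.00452 on the log2 scale. No fold change of a checkpoint gene and no ratio changed direction under these alternatives, but PRKDC, MTOR and TRRAP did without siEIF1 replicate 3, and the median of the other kinases of the ATR and ATM family, near 0, took either sign, from -0.12 without siEIF1 replicate 3 to 0.032 without siEIF1 replicate 1, and was -0.022 and -0.025 with limma and -0.0046 with the replicate block. The number of checkpoint genes without overlap was 9 in FPKM and 10 in CPM without TMM, both tried after the data were seen. The share of all tested genes without overlap was not counted on either scale, so these numbers have no share beside them. Calls of PPP1CB and RUVBL1 were lost under limma on log2(FPKM + 1) and without several single libraries. Same-numbered NC and siEIF1 libraries correlated at 0.150, 0.0946 and 0.128 after removing group means, and every library correlated best with its own number. The main fit did not take the numbers as pairs. Over all tested genes it called 1744 lower and 1702 higher, against 2128 and 2149 with the replicate block. Whether same-numbered libraries share a batch was not tested. With the replicate block, the checkpoint genes had the same 5 calls, ATR at an adjusted p of 0.00638 and WEE1 at 0.0510. Depth limits CDC25C (49.7 counts on average) and CDC25A most.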
